A study of Mus musculus with 59 samples.

Results

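The genes described here encode the proteins of the cytosolic ribosome. They were the 78 of 19613 genes measured whose symbol is Rpl or Rps followed by a number (with or without a final a, x or l), or is Rplp0, Rplp1, Rplp2 or Rpsa. No expression value entered this rule, but the family itself was chosen with earlier results of these data known. Of the 78, 47 belong to the large subunit and 31 to the small subunit, and the counts include Rpl3l, Rpl39l and Rps27l, which are paralogues of Rpl3, Rpl39 and Rps27.

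The study asked whether motor neurons in culture respond differently to blood from animals that will develop amyotrophic lateral sclerosis. Embryoid bodies holding spinal motor neurons were grown from HBG3 mouse embryonic stem cells, which carry a green fluorescent reporter of the motor neuron gene HB9 (Mnx1), and were kept for 24 h with mouse serum. In the carrier serum group (29 arrays) the serum donors were males hemizygous for a mutant human SOD1 transgene, taken before symptoms. In the non-carrier serum group (30 arrays) they were littermates without it. All donors were F1 progeny of C57BL/6 and SJL mice, the labels give 9 weeks for most arrays and 10 weeks for the others, and only the serum, not the cells, carried the genotype. Total RNA of the whole embryoid bodies was hybridised to Affymetrix mouse exon arrays, so other cell types of the bodies contribute to every value, and a lower value in such bulk RNA cannot tell fewer cells of a type from less RNA per cell.

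A ribosome reads mRNA on its small subunit and joins amino acids on its large subunit, and each subunit is built in the nucleolus from ribosomal RNA and a set of proteins, most of them in a single copy. The proteins are needed in matched amounts, and their genes are known to be transcribed together at a high rate. Their mRNAs, with those of several elongation factors, start with a short run of pyrimidines, the TOP motif, through which the kinase mTOR controls their translation. Neurons need a large supply of ribosomes for axon growth, and some ribosomal proteins that are left unassembled, such as Rpl5 and Rpl11, bind Mdm2 and so stabilise p53.

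The labels name no batch, and the array titles were used in its place, by their common name or by blocks of their numbers. In number order, each numbered block goes from non-carrier to carrier titles, and a new block starts where non-carrier titles return. These cuts are a choice, since the numbers run on from A to B, from C to D and from E to F. This gave 9 runs of 4 to 11 arrays, each with both sera. The runs are called motorneuron, HB9MNs and 10-week by their titles and A to F where the titles give only numbers. Values are log2 of the deposited intensity, and the median intensity of an array ranged from 151 to 183. Of the motor neuron marker list, 8 of 9 genes were measured, with mean log2 values from 8.62 (Slc5a7) to 10.51 (Isl1), and of the pluripotency list all 9, from 5.05 to 6.83. Grubbs' test on the mean correlation of an array with its run called carrier serum array 23 of run E and non-carrier serum array 14 of run C. Non-carrier serum array 1 of run motorneuron was not called by that test, but its mean over the large subunit genes lay apart from those of its group. Counts of members called are given with and without these arrays. The serum differences within runs motorneuron and E are also given without array 1 and array 23. Most other values, among them run means and correlations, are given only with all arrays. Ribosomal protein genes have many near-identical processed copies in the mouse genome, so probes may read RNA from several places and the value of a single gene is uncertain to that extent.

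With carrier serum most ribosomal protein genes had slightly lower values, and the difference was small for each of them. The log2 change (carrier minus non-carrier serum, with the run as a block) was negative for 69 of 78 genes, or 88.5%, whereas it was negative for 38.9% of all genes. The median change was -0.049 over the 78 genes and 0.016 over all genes. Members are bright, with 67 of the 78 above the 90th percentile of mean intensity, and with genes below the median intensity left out the background was nearer to them. Among the 9807 genes that remained the median change was -0.0096 and 58.9% were negative, against -0.051 and 69 of the 76 members left. In limma, at a threshold of 0.05 on p-values adjusted by Benjamini-Hochberg across the whole array, 3 members fell (Rpl35a, Rpl27a and Rps7) and 0 rose. That is 3.85% of the members, beside a background of 2.33% of all genes called in either direction and 1.65% called lower. At an unadjusted p under 0.05, 21 members were lower (26.9%) and 0 higher, against 8.68% of all genes lower and 12% higher. Values were lower with carrier serum in at least 7 of the 9 runs for 20 of 78 members, against 13.8% of all genes. The change was below -0.1 for 9 members and above 0.1 for 0.

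**Figure D1:**
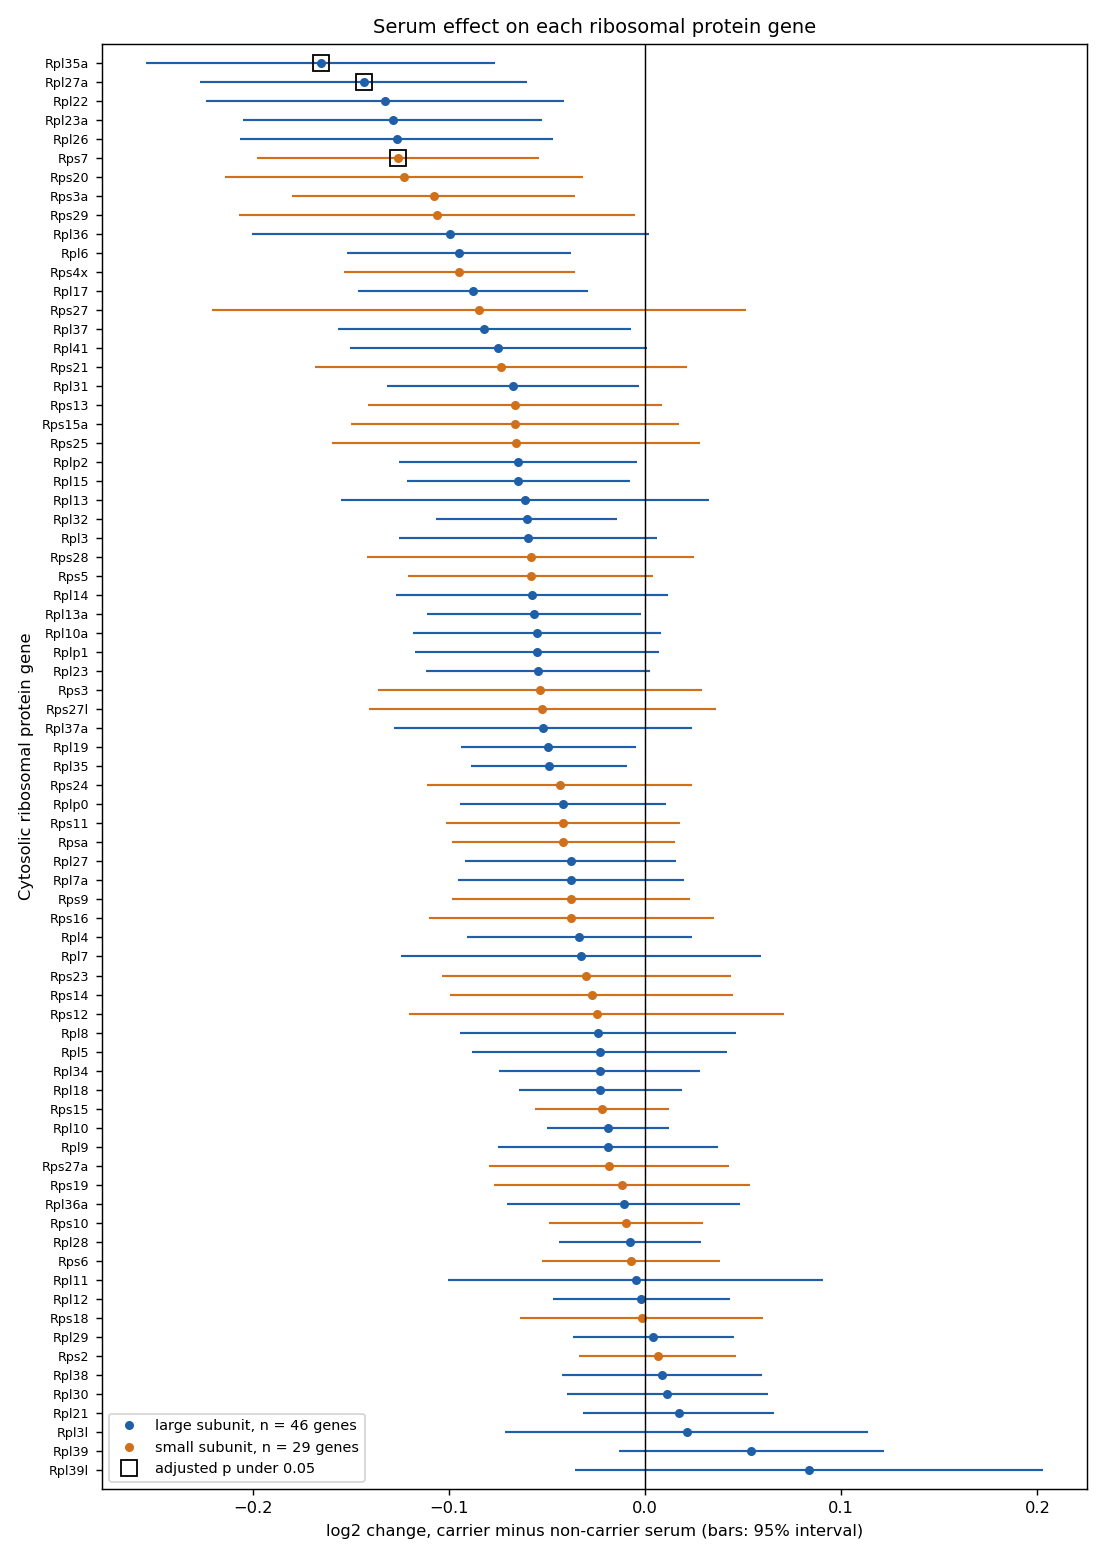
The log2 change of 75 of the genes (carrier minus non-carrier serum, horizontal axis) with its 95% interval, ordered from the most negative to the most positive and coloured by subunit, with squares round the 3 genes past the adjusted threshold. The points run from -0.17 (Rpl35a) to 0.084 (Rpl39l), 67 of them left of 0, and 20 of the intervals drawn lie wholly below 0 and 0 wholly above it.

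Rpl35a, a large subunit protein whose human gene is mutated in some families with Diamond-Blackfan anaemia, had the most negative change. Its log2 values ranged from 10.34 to 11.18 with non-carrier serum (median 10.69, n = 30) and from 9.94 to 11.24 with carrier serum (median 10.55, n = 29). The ranges of the groups overlapped, since runs differed more than sera, but within runs A, B, D, E and 10-week every carrier array lay below every non-carrier array. The change was -0.17 (SE 0.044, limma adjusted p = 0.0313), so that intensity fell by 10.8%, and the run means were lower in 7 of 9 runs. The lowest array was a carrier array of run D at 9.94.

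Rpl27a, another protein of the large subunit, ranged from 10.66 to 11.18 (median 10.84) with non-carrier serum and from 9.93 to 11.19 (median 10.77) with carrier serum. Its lowest value, 9.93, came from run E, in which the other carrier arrays reached 10.72. The carrier arrays lay wholly below the non-carrier arrays in runs HB9MNs, A, B, D and F, and overlapped with them in the remaining runs. The change was -0.14 (SE 0.042, limma adjusted p = 0.0491), with a lower mean in 8 of 9 runs.

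Rps7, a small subunit protein needed for processing of the small subunit RNA and one of those that bind Mdm2, ranged from 10.84 to 11.72 (median 11.25) with non-carrier serum and from 10.60 to 11.64 (median 11.11) with carrier serum. The carrier arrays lay wholly below the others in runs A, B, E, F and 10-week. The change was -0.13 (SE 0.036, limma adjusted p = 0.0448), lower in 8 of 9 runs. Rps7 and Rpsa are on gene lists that the study chose on these samples, so the direction of Rps7 is not independent evidence. Without the pair, 67 of 76 members had a negative change and 2 were called.

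**Figure D2:**
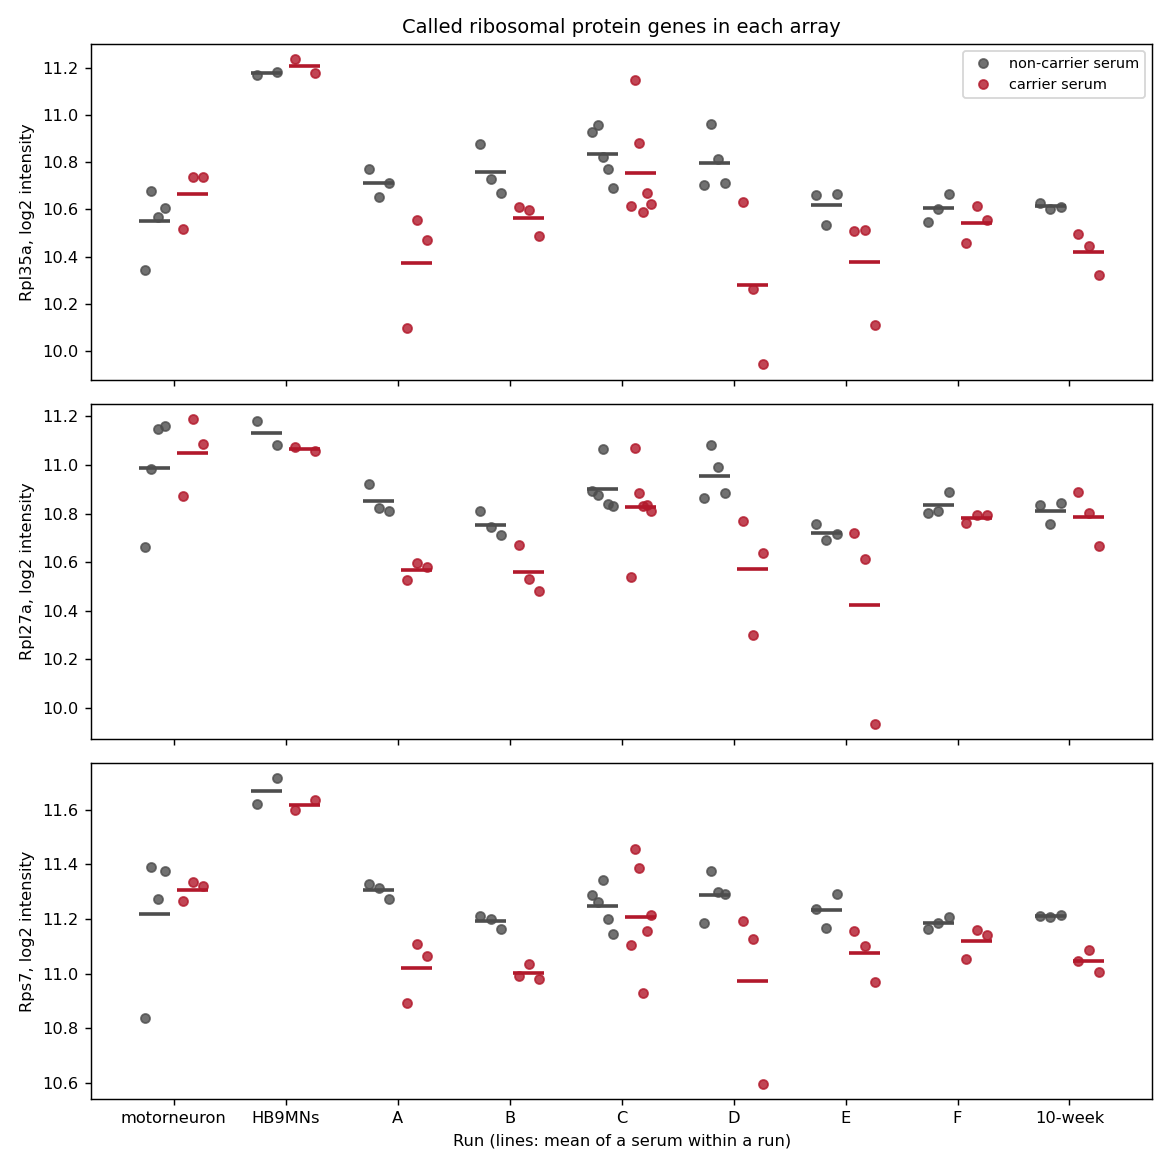
Log2 intensity of Rpl35a, Rpl27a and Rps7 (vertical axes) in each of the 59 arrays, by run (horizontal axis), with grey points for non-carrier and red points for carrier serum and lines at the mean of a serum within a run. The red points lie below the grey ones in runs A and B for all 3 genes, and in run motorneuron the single low grey point is non-carrier serum array 1.

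These 3 calls lay close to the threshold and did not outlast the loss of most single runs. With any of runs A, B, D, E, F or 10-week left out, 0 members were called, and from 0.413% to 0.913% of all genes were called lower. Without run motorneuron 13 members were called (16.7%, all genes 2.24%), without run C 10 (12.8%, all genes 4.68%) and without run HB9MNs 5 (6.41%, all genes 1.93%). Without non-carrier serum array 1 the count was 12 (15.4%, all genes 2.51%), and without the arrays called by Grubbs' test it was 3 (3.85%, all genes 2.02%). The median change over the members stayed negative whichever run was left out, from -0.067 to -0.033, and from 60 to 72 members had a negative change.

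The sequences round the annotated starts of the genes are shown to place the TOP motif beside these values. Each line gives 40 bases before and 20 bases from the annotated start in RefSeq (mouse build GRCm38.p6), in the sense of the gene, with the longest run of C and T in capitals. The first 3 are the called genes, and the others are the genes with the most positive changes among those with an entry. Rpl35a has 3 entries, of which the one with the longest run is shown, and the others have 1 each.
Rpl35a, chr16:33056442-33056501, plus strand: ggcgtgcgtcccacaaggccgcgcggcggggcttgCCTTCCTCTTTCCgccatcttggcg
Rpl27a, chr7:109519155-109519214, plus strand: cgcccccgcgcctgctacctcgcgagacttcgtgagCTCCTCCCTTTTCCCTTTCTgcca
Rps7, chr12:28635934-28635993, minus strand: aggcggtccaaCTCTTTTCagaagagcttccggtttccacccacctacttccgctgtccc
Rpl39l, chr16:10170188-10170247, plus strand: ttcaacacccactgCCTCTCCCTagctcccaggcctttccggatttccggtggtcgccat
Rpl39, chrX:37085203-37085262, minus strand: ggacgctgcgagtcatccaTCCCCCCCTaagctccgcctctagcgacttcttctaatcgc
In the windows shown for Rpl35a and Rpl27a the run of pyrimidines spans the annotated start, with 13 and 20 bases. In the other 3 windows the longest run lies upstream of it. Shorter runs are not marked, and the window of Rpl39 also holds one of 8 bases (cttcttct) downstream of the start.

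Of the 78 genes, 57 had an entry in the promoter table. A gene with several entries was counted if any of them held the feature, in the members and in all genes alike. A run of at least 8 C or T in this window was found for 34 of the 57 (59.6%), against 27.5% of the 13453 measured genes with an entry and 27.2% of all genes in the table. The share was 60% for the large and 59.1% for the small subunit, and 26.2% for mitochondrial ribosomal proteins, whose mRNAs are not known as TOP mRNAs. The letters CCGGAAG, the core that factors of the ETS family bind, were present on either strand between 250 bases before and 50 bases after the start for 24 of 57 genes (42.1%), against 13.7% of the measured genes with an entry and 35.4% of the mitochondrial ribosomal proteins with one. Read on the other strand these letters contain a stretch of pyrimidines, so a match may overlap a run of C and T. The median change with carrier serum was -0.046 for the 34 genes with a run and -0.042 for the 23 without, and -0.051 for the 24 genes with CCGGAAG and -0.038 for the 33 without it. Such a match is a description of the letters, and the annotated start may not be the start used in these cells.

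Just outside the threshold were Rpl23a (change -0.13, limma adjusted p = 0.0540), Rpl6 (-0.095, adjusted p = 0.0574), Rps4x (-0.095, adjusted p = 0.0651) and Rpl26 (-0.13, adjusted p = 0.0698). Rpl23a lies at the exit of the peptide tunnel, where it binds the signal recognition particle, and its values ranged from 11.10 to 11.73 with non-carrier and from 10.86 to 11.87 with carrier serum. Rpl26, known to bind the p53 mRNA, ranged from 10.05 to 10.81 and from 9.85 to 10.78. Rpl22, an RNA-binding protein of the large subunit that most cells can do without, had the third most negative change, -0.13 (SE 0.045, limma adjusted p = 0.0973). It ranged from 8.96 to 10.17 with non-carrier and from 8.76 to 9.92 with carrier serum. For all of these the groups overlapped over the 59 arrays.

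Among the genes with positive changes several belonged to the large subunit, and none passed the test. Rpl39l, a paralogue known mainly from the testis, had a change of 0.084 (SE 0.059, limma adjusted p = 0.408), with values from 4.51 to 6.27 with non-carrier and from 4.60 to 6.68 with carrier serum. Its parent gene Rpl39, whose small protein lines the exit tunnel, had a change of 0.054 (SE 0.034, adjusted p = 0.343) and lower carrier means in 3 of 9 runs. Rpl3l had 0.021 and Rpl21 0.017, and the interval of each included 0. The sign turned for Rpl39 when 4 motor neuron genes were adjusted for, for Rpl3l under quantile normalisation and for Rpl21 without a run term.

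The paralogues were set beside their parent genes. Rpl3l and Rpl39l are dim, with mean log2 values of 4.87 and 5.28 at the 10.1 and 15.8 percentiles of all genes, and may lie near background, which the deposited values do not mark. Rps27l, known as a p53 target, had a change of -0.052 (SE 0.044) beside -0.084 (SE 0.068) for Rps27. Rpl3l, a muscle form, had 0.021 (SE 0.046) beside -0.060 (SE 0.033) for Rpl3, the protein next to the peptidyl transferase centre. Rpl39l and Rpl39 both had positive values, as given above. The intervals of each pair overlapped, and without the 3 paralogues 68 of 75 members had a negative change.

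Neither the stalk proteins nor Rpl5, Rpl11, Rpsa or Rps6 passed the test. The stalk proteins, which draw elongation factors to the ribosome, had -0.042 (Rplp0, SE 0.026), -0.055 (Rplp1, SE 0.031) and -0.065 (Rplp2, SE 0.030, limma adjusted p = 0.213). Rpl5 and Rpl11, which carry the 5S ribosomal RNA, had -0.023 (SE 0.032) and -0.0048 (SE 0.047), and their 95% intervals reached from -0.088 to 0.042 and from -0.10 to 0.091. Rpsa, also known as a laminin receptor, had -0.042 (SE 0.028). Rps6, the substrate of the S6 kinases, ranged from 13.36 to 13.92 with non-carrier and from 13.42 to 13.95 with carrier serum, and its change of -0.0071 (95% interval -0.052 to 0.038) was among the smallest of the set. The sign for Rpl5, Rpl11 and Rps6 turned when single runs were left out.

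Within runs the direction was not the same everywhere. In run A 73 of 78 members had a lower mean with carrier serum, and for 50 the arrays did not overlap, against 8.07% of all genes that did so in this direction. Rpl39l alone lay wholly above there (all genes 8.61%). In run D 67 members were lower and 19 did not overlap (all genes 7.64%), and in run E 66 and 11 (all genes 5.08%), with 0 members wholly above in either (all genes 10.1% and 3.01%). In run F 65 were lower and 35 did not overlap (all genes 13.1%), while Rpl27 lay wholly above (all genes 20.1%). The 10-week run had 57 lower members and 22 without overlap (all genes 8.3%), while Rpl8, Rps12, Rps18 and Rps27a lay wholly above (all genes 9.79%). Run B had 53 lower members and 16 without overlap (all genes 5.26%), and 0 wholly above (all genes 5.27%). These 6 runs gave median differences over the members from -0.19 (run A) to -0.045 (10-week).

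The other runs had positive medians. In run motorneuron 6 members were lower and the median difference was 0.069, with 0 members free of overlap (all genes 1.69% below and 2.71% above). That direction rested on non-carrier serum array 1, for without it 46 members were lower and the median was -0.0098. In run HB9MNs, with 2 arrays of each serum, 21 members were lower, 27 lay wholly above and 5 wholly below, against 17.2% and 31.7% of all genes. In run C 20 members were lower, 0 were free of overlap (all genes 0.413% below and 0.311% above) and the median was 0.027. In run E the median of -0.12 became -0.050 without carrier serum array 23, with 64 members still lower.

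**Figure D3:**
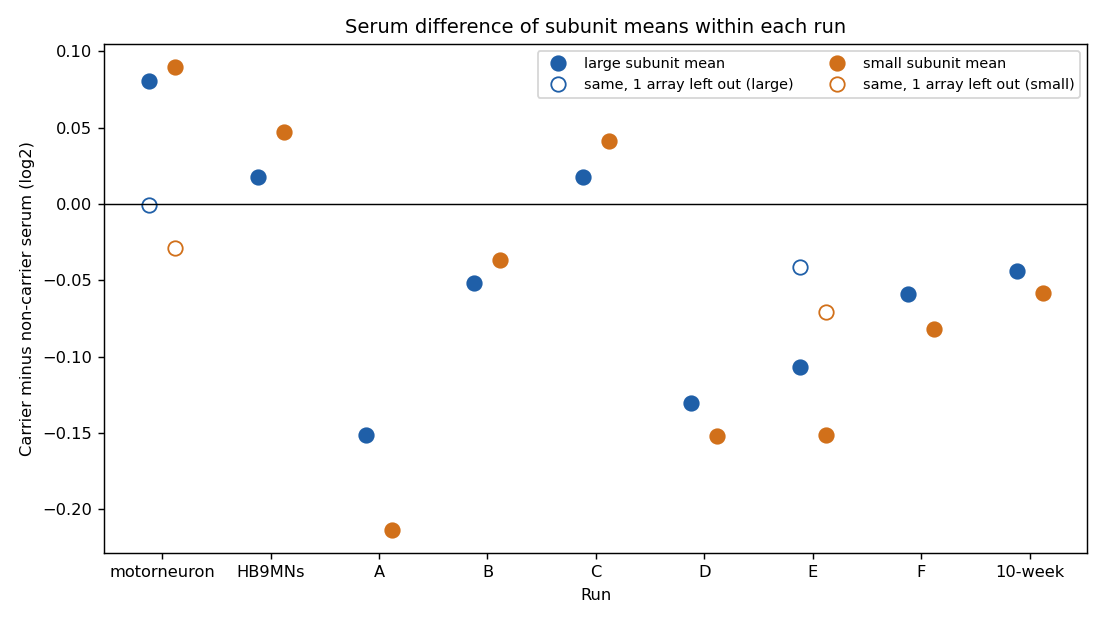
The difference between sera (carrier minus non-carrier, log2, vertical axis) of the mean over the 47 large subunit genes (blue) and the 31 small subunit genes (orange) within each run (horizontal axis), with open circles for run motorneuron without non-carrier serum array 1 and run E without carrier serum array 23. The pair of points moves together from run to run, from -0.15 and -0.21 in run A to 0.081 and 0.090 in run motorneuron, and the open circles of run motorneuron lie at or below 0.

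A serum effect that differed between runs was tested with limma's F test on the interaction of run and serum. It called 0 members, beside 25 of all genes (0.127%), and at an unadjusted p under 0.05 it gave 9 members and 7.94% of all genes. The smallest p values were those of Rpl32 (p = 0.00942, adjusted p = 0.438) and Rpl19 (p = 0.0146, adjusted p = 0.497). The spread of the within-run medians was therefore not shown to be a difference between runs at this number of arrays.

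The run itself accounted for most of the variance of the ribosomal protein genes. A difference between runs was called by limma's F test for 77 of 78 members, beside 94% of all genes, and the median share of variance taken by the run was 70.6% for members and 62.5% for all genes. The exception was Rpl27, a large subunit protein, whose run means ranged over 0.12 (share 15.5%, adjusted p = 0.347). After it the smallest shares were those of Rpl23, which binds Mdm2, at 34.3% and of Rps25 at 36.3%. Among the largest shares were those of Rpl38 (91.4%), known from mouse mutants with skeletal patterning defects, and Rpl10 (90.6%), one of the last proteins to join the large subunit.

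The embryoid bodies of the motorneuron and HB9MNs runs had the highest values for most genes. The run with the highest mean was motorneuron for 50 members and HB9MNs for 20, and the lowest was E for 40, A for 15 and B for 10. Rps27 spanned the widest range, from a run mean of 9.41 in run E to one 1.36 higher in run motorneuron. A few members ran the other way. Rpl38 had its lowest mean in run motorneuron, 10.90 with non-carrier and 11.03 with carrier serum, against 11.93 with both in run B. Rplp2 likewise stood at 10.16 and 10.13 in run motorneuron, against 10.91 and 10.84 in run HB9MNs. Rpl3, Rpl4 and Rpl6 also had their lowest run mean there.

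Some of the marker lists were also high in run motorneuron. Relative to their overall means, the red blood cell markers stood at 0.38 there, the endoderm and mesoderm markers at 0.32, the astrocyte markers at 0.28 and the pluripotency markers at 0.27. In run HB9MNs the same lists stood at -0.049, 0.023, -0.14 and -0.010. The other lists were not high in run motorneuron, with the cell cycle markers at -0.23. The neural progenitor markers stood at 0.010 there, the motor neuron markers at 0.014 and the neuron markers at 0.043. Of the red blood cell list only 3 of 7 genes were measured, with mean log2 values from 4.70 to 5.77, which may lie near background. The endoderm and mesoderm markers were also high in the 10-week run (0.28) and run F (0.20), where the mean over the members stood at -0.038 and -0.0035. The median intensity of the arrays was 175 in run motorneuron and 159 in run HB9MNs, and from 154 to 161 in the others. The part of cell composition and of array intensity in the level of these runs was not tested.

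**Figure D4:**
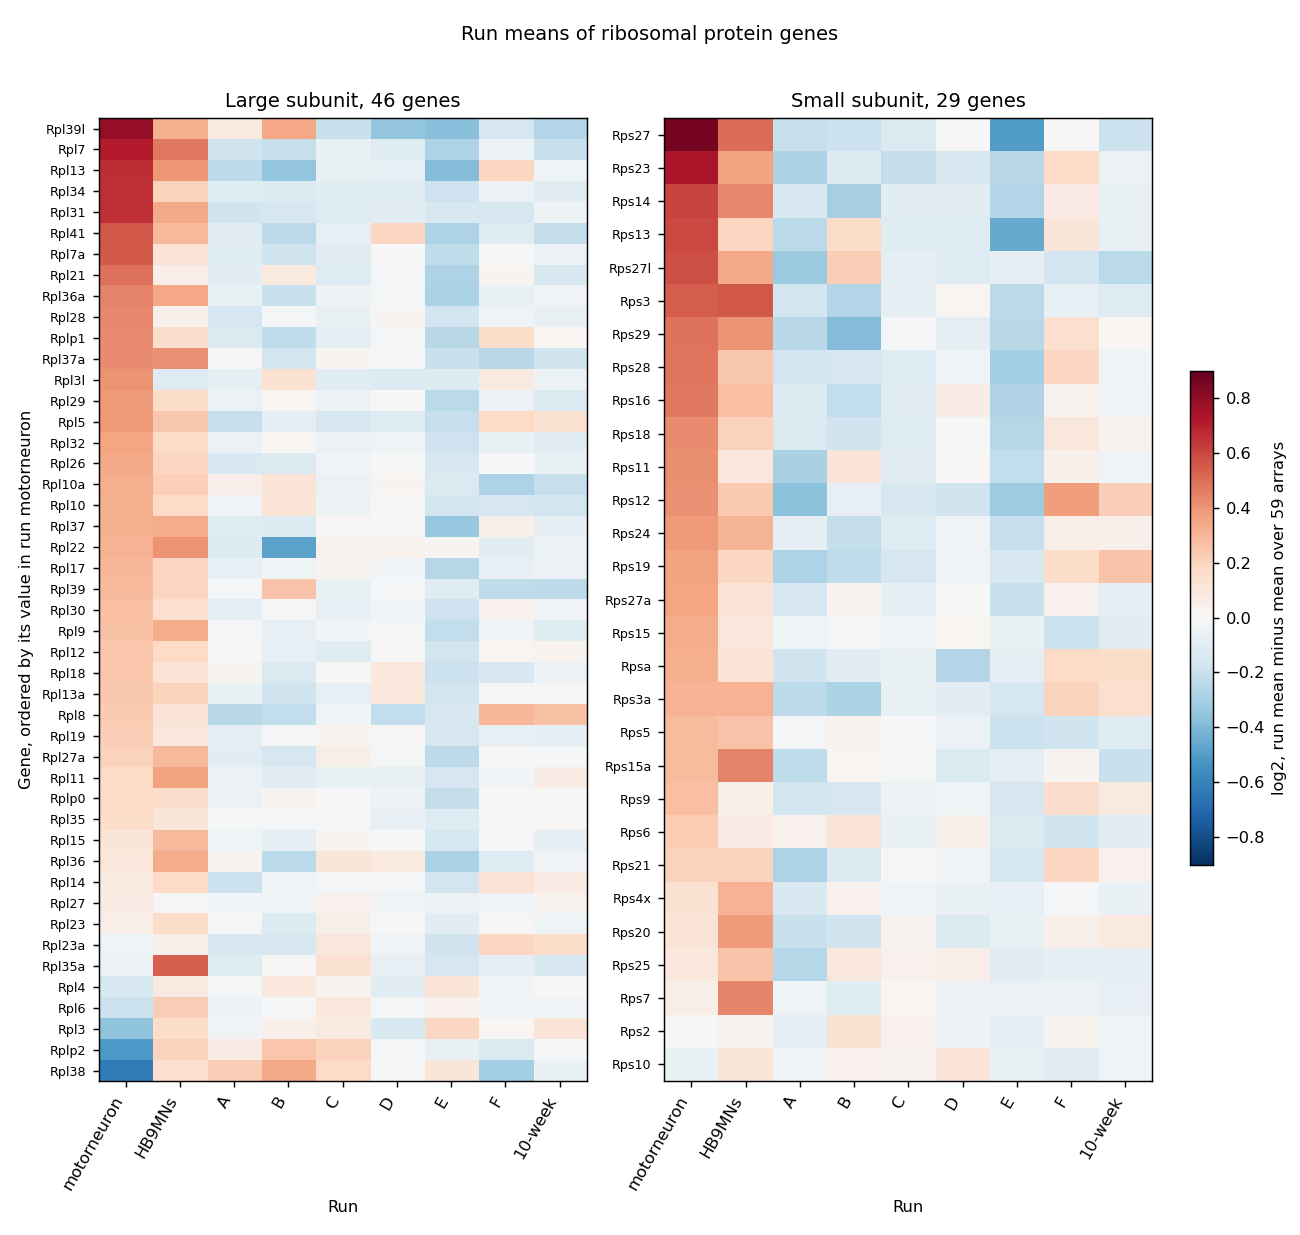
Run means of 46 large (left) and 29 small subunit genes (right), each as its difference from the mean of the gene over 59 arrays (log2, colour scale), with runs in columns and genes ordered by their value in run motorneuron. Most rows are red in runs motorneuron and HB9MNs and blue in run E, while Rpl38, Rplp2 and Rpl3 at the bottom of the left panel are blue in run motorneuron.

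Large and small subunit genes were then contrasted, with each gene first centred on its mean over the 59 arrays. With carrier serum, 39 of 47 large subunit genes (83%) and 30 of 31 small subunit genes (96.8%) had a negative change, the exception being Rps2 (0.0065, SE 0.020). The median changes were -0.049 and -0.052, and their difference, 0.0037, was smaller than its SD of 0.034 over the 9 runs and turned negative without run A (-0.010) or run F (-0.0037). Of the calls 2 were in the large (4.26%) and 1 in the small subunit (3.23%), beside 1.65% of all genes called lower. At an unadjusted p under 0.05, 15 large subunit genes (31.9%) and 6 small subunit genes (19.4%) were lower, beside 8.68% of all genes.

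The mean over the large subunit genes ranged from -0.18 to 0.32 (median -0.012) with non-carrier serum and from -0.35 to 0.37 (median -0.057) with carrier serum. The mean over the small subunit genes ranged from -0.16 to 0.51 (median 0.0032) and from -0.42 to 0.50 (median -0.067). The ranges overlapped, but 9 of the 29 carrier arrays lay below every non-carrier array in the small subunit mean. These 9 came from runs A, C, D and E, and the run was not removed here. In the large subunit mean 1 carrier array lay below every non-carrier array and 1 lay above. In the small subunit mean 1 non-carrier array lay above every carrier array. The large mean minus the small mean was -0.0060 ± 0.062 (SD, n = 30) with non-carrier and 0.0062 ± 0.064 (SD, n = 29) with carrier serum.

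The subunit means varied together from array to array, and the small subunit mean varied more. The Pearson correlation of the large with the small mean was 0.967 over 59 arrays. Because arrays of a run lie together, the mean of each run and serum was then removed, and the correlation was 0.974 (Spearman's rho 0.972), or 0.958 without the 2 arrays farthest from the median. Within the 8 runs of at least 6 arrays, with the difference between sera left in, the correlation ranged from 0.867 (run B) to 0.998 (run A). Both means come from the same array and share its scaling, so these values are descriptions. The slope of the small on the large mean was 1.29, and 1.34 after the run and serum means were removed. The large set holds Rpl39l, Rpl3l, Rpl39 and Rpl38, and the small set Rps6, which followed the other members little or not at all (values below). The part of these genes in the slope was not tested.

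The runs differed in the balance of the subunits. Large minus small was most negative in run motorneuron (-0.074), run F (-0.067) and run HB9MNs (-0.060), and most positive in run A (0.10). Run E gave the lowest mean for 33 of 47 large subunit genes but for 7 of 31 small subunit genes. Run A did so for 3 large and 12 small subunit genes. Within runs the difference between sera of large minus small lay between -0.029 (HB9MNs) and 0.062 (run A).

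**Figure D5:**
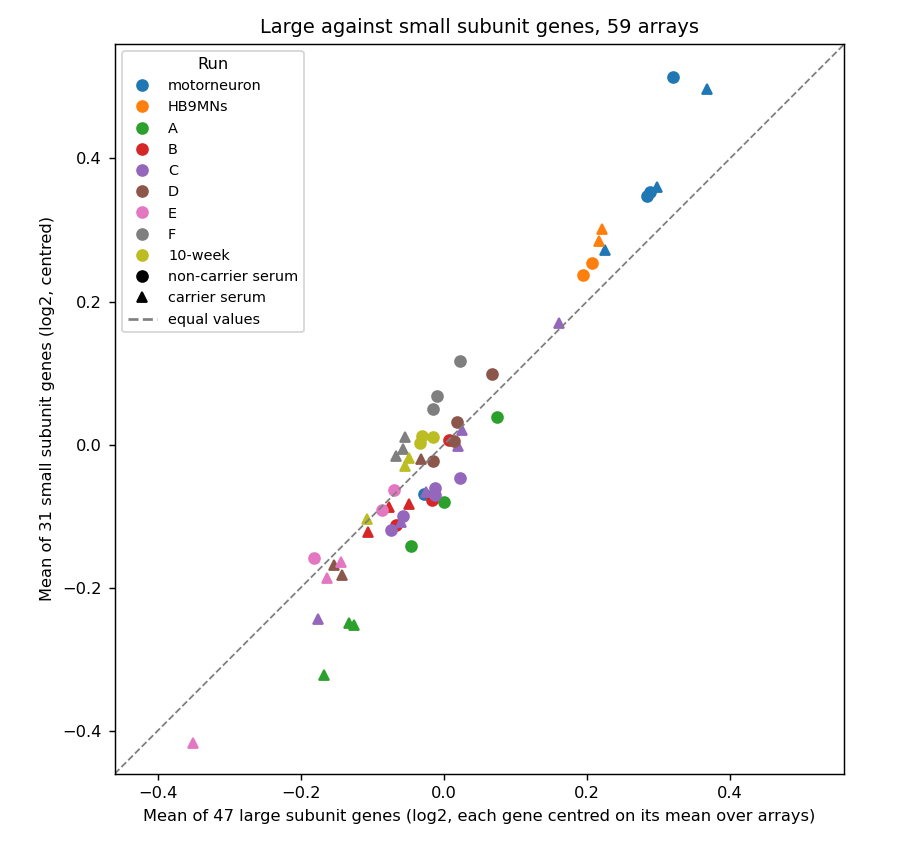
The mean over 31 small subunit genes (vertical axis) against the mean over 47 large subunit genes (horizontal axis) in each of 59 arrays, both in log2 and centred per gene, coloured by run, with circles for non-carrier and triangles for carrier serum and a dashed line of equal values. The arrays follow a line steeper than the dashed one (slope 1.29), with runs motorneuron and HB9MNs at the upper right and carrier serum array 23 of run E at the lower left.

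Single genes followed this shared movement to different degrees. After the mean of each run and serum was removed, the mean pairwise correlation over 59 arrays was 0.44 among members, 0.39 within the large and 0.53 within the small subunit, 0.45 between them, and 0.026 over all pairs of genes. Mitochondrial ribosomal proteins had 0.21 among themselves and 0.24 with the members. Among the genes closest to the others were Rps29 (mean correlation 0.60) and Rpl10 (0.59). Farthest from them were Rpl39l (-0.17), Rpl3l (-0.12), Rps6 (0.035), Rpl39 (0.041) and Rpl38 (0.084). The SD within runs and sera was largest for Rps27 (0.25), Rpl39l (0.24) and Rps21 (0.19) and smallest for Rpl10 (0.049).

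Other genes of the translation machinery were set beside the members. Over all genes 38.9% had a negative change and 1.65% were called lower. At an unadjusted p under 0.05, 8.68% of all genes were lower and 12% higher. Of 73 mitochondrial ribosomal proteins, which make the ribosome of the mitochondrial matrix, 54 (74%) had a negative change (median -0.029). The share called lower was 4.11%, beside 3.85% of the members. The 3 that fell were Mrpl15 (-0.12, limma adjusted p = 0.0105), Mrps35 (-0.12, adjusted p = 0.0420) and Mrps18b (-0.10, adjusted p = 0.0474). Of 14 elongation factors and other TOP mRNAs, 12 had a negative change (median -0.030) and 0 were called in limma, with 3 lower at an unadjusted p under 0.05. Eef1b2, a subunit of the exchange factor of elongation factor 1, had the most negative of these (-0.13, adjusted p = 0.0543). Of 50 ribosome biogenesis genes 29 had a negative change (median -0.0076), 0 were called, and at an unadjusted p under 0.05 there were 4 lower and 3 higher.

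Of 14 genes through which mTOR controls TOP mRNAs, 12 had a negative change (median -0.022). At an unadjusted p under 0.05 there were 2 lower and 1 higher. The interaction of run and serum was called for 1 of the 14, beside 0.127% of all genes. In the serum fit 1 gene fell (7.14%, all genes 1.65%). This was Eif4ebp1, the inhibitor of the cap-binding factor eIF4E, with -0.33 (SE 0.080, limma adjusted p = 0.0155) and lower carrier means in 6 of 9 runs. Larp1, which binds the TOP motif itself, had -0.060 (adjusted p = 0.113). Of the 6 measured ribosomal proteins that the symbol rule leaves out, such as Fau (-0.080, adjusted p = 0.106), 4 had a negative change and 0 were called, with 2 lower at an unadjusted p under 0.05.

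Array means of the members moved with some of these lists. After the run and serum means were removed, the mean over all members correlated with the mean of the mitochondrial ribosomal proteins (r = 0.78, Spearman's rho 0.65, n = 59 arrays) and of the elongation factors and TOP mRNAs (r = 0.68, rho 0.67). With the ribosome biogenesis genes r was 0.46 but rho 0.14, so that value did not hold in ranks. For the motor neuron markers r was -0.085, for the neuron markers -0.043, for the neural progenitor markers -0.36, for the cell cycle markers 0.14 and for the median intensity of the array -0.19. For the lists that were high in run motorneuron r was -0.26 (endoderm and mesoderm), -0.23 (red blood cell), -0.20 (astrocyte) and -0.13 (pluripotency). All of these values come from the same arrays and share their scaling.

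Single cell type markers also differed between the sera. Over all genes 0.683% were called higher and 1.65% lower, and at an unadjusted p under 0.05, 12% were higher and 8.68% lower. Of 8 motor neuron markers Slc5a7, the choline transporter, rose (0.15, limma adjusted p = 0.0410), 5 of the 8 had negative values, and at an unadjusted p under 0.05 there were 3 lower and 3 higher. Of 8 neuron markers Stmn2 (0.061, adjusted p = 0.0400), Snap25 (0.074, adjusted p = 0.0166) and Nefl (0.058, adjusted p = 0.0250) rose, 3 of the 8 had negative values, and at an unadjusted p under 0.05 there was 1 lower, Rbfox3 (-0.063, adjusted p = 0.241). The mean of the neuron markers ranged from -0.19 to 0.099 with non-carrier and from -0.12 to 0.13 with carrier serum, and that of the motor neuron markers from -0.24 to 0.15 and from -0.27 to 0.15. In the lists for neural progenitors, pluripotent cells, the cell cycle, endoderm and mesoderm, red blood cells and astrocytes 0 genes were called in limma, and at an unadjusted p under 0.05 there were 0 lower, with 2 higher in each of the pluripotency, cell cycle, and endoderm and mesoderm lists. The part of a shift in cell types in the values of the ribosomal protein genes was not tested.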

How the data were processed

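The authors made the deposited intensity values, on a linear scale, from Affymetrix mouse exon arrays with RMA in the aroma.affymetrix package, as the mean over all exons of a gene, with all arrays normalised together and outlying arrays removed by Grubbs' test. The labels also name Affymetrix Expression Console. The genome build is not given in the sources used here.

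Values were taken to log2 with 0 added, and no gene was filtered out. Groups came from the labels. Runs came from array titles, and run C, with 11 arrays, holds more than 1 batch. Serum, run and interaction effects were fitted on all 59 arrays in limma 3.58.1 (R 4.3.3, functions lmFit and eBayes), two-sided, with Benjamini-Hochberg adjustment over 19613 genes. The serum, run and interaction fits as reported were checked on simulated data, and the fits of the alternatives were not. The serum fit recovered 31.3% of simulated log2 changes of 0.1 and 83.6% of those of 0.2. The interaction fit recovered 74% of simulated effects of 0.8 in 1 run, with 15 false calls. Each array holds 1 serum sample, p-values measure the spread between arrays, and how many arrays there are sets the precision. The members and the gene lists were chosen with earlier results of these data known, so no test over a list was made. Named genes were the called members, the 5 most negative and 5 most positive changes, the 3 largest and 3 smallest shares of variance by run, the 3 largest SDs within runs and sera, stalk, 5S and paralogue genes, Rpsa, Rps7 and Rps6, and called genes of the other lists. Rpl32, Rpl19, Rpl6, Rpl4, Rpl8, Rps4x, Rps2, Rps12, Rps18, Rps27a, Rps29, Eef1b2, Larp1 and Fau were named after their values were seen. The alternatives covered the block, normalisation, pseudocount, filter, variance model, array weights and arrays or runs left out. Replicate numbers shared by groups did not pair the arrays (correlations of deviations from -0.13 to 0.33), so no pairing was used. Some genes that the rule names are not reported here and are left out of the plots of single genes, but stay in all counts and means. Promoter sequences are those of RefSeq, GRCm38.p6.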

Additional observations from a re-analysis of the deposited data

Results flagged for a closer look

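Values of the named genes and of the subunit means were checked within each run and serum of 4 to 10 arrays for 1 array far from the others, by Dixon's ratio at its 95% critical value. Of 124 such groups of values 5 held one, and chance gives about 1 in 20. In run motorneuron the mean over the large subunit genes in non-carrier serum array 1 was -0.027, with the next array at 0.28. In run C, Rpl27a was highest in non-carrier serum array 15 at 11.06 (next 10.89) and Rplp1 in non-carrier serum array 14 at 12.31 (next 12.05). In the same run Rpl5 was lowest in non-carrier serum array 17 at 10.92 (next 11.10), and Rpl23a was highest in carrier serum array 13 at 11.87 (next 11.57). The cause of these values was not tested.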

How the results depend on the processing

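The median change over members, over each subunit and the difference of the subunit medians moved by less than 1 SD of the within-run values under every alternative run. This SD was 0.087 for the members, 0.077 for the large and 0.10 for the small subunit, and 0.034 for the difference. Each SD is larger than the median it is set against, so a move to 0 would also have stayed within it. The median over members lay between -0.10 (runs E and F alone) and -0.033 (run A left out), and that over the small subunit between -0.12 and -0.028 in the same fits. The large minus small difference, 0.0037 as reported, ranged from -0.010 without run A to 0.035 in runs E and F alone, and was also negative without run F (-0.0037), without runs E and F (-0.0086) and with the replicate block (-0.00089). Members called lower, 3 as reported, numbered 0 without a run term, with 4 motor neuron genes (Olig2, Mnx1, Isl1, Lhx3) in place of the run, with runs E and F left out and with these alone, where from 0% to 0.255% of all genes were called lower. They numbered 5 (6.41%) with run C parted into 2 blocks (all genes 2.25%), with quantile normalisation (1.35%) and with a trended and robust eBayes (1.86%), and 7 of 76 (9.21%) with genes below the median intensity left out (5.2%). They numbered 19 (24.4%) with array weights (7.34%) and 21 (26.9%) with the 4 genes beside the run (11.1%). That last fit also called 1 member higher, Rpl39l (0.17), and 6126 genes in all. Over all genes 323 were called lower and 134 higher, and 264 and 180 under quantile normalisation. Leaving out single runs gave 0 to 13, and leaving out non-carrier serum array 1, chosen after the data were seen, gave 12. With the replicate block 3 members were called lower (3.85%, all genes 1.73%), as without it, and 67 in place of 69 had a negative change. Members called between runs numbered 75 to 78 when single runs were left out, and the interaction called 0 members in each alternative it was run for. In the fits as reported these tests called 94% and 0.127% of all genes, so neither count sets the members apart.

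Some small changes turned sign. Without a run term Rpl21 had -0.0033. With the replicate block Rpl11 had 0.0091. With the 4 genes beside the run Rpl39 had -0.0046 and Rplp1 0.015, and with the 4 genes alone Rpl39 had -0.0018 and Rpl38 -0.032. Under quantile normalisation Rpl3l had -0.038 and Rpl11 0.0072, and with array weights Rpl3l had -0.0046. Without the arrays called by Grubbs' test, also left out after the data were seen, Rpl3l had -0.0027 and Rpl11 0.0079. Rpl11 had 0.024 without runs E and F, and Rpl38 -0.00045 in them alone. When single runs were left out, Rpl38 ranged from -0.0066 to 0.023, Rpl5 from -0.054 to 0.0041, Rpl11 from -0.033 to 0.031 and Rps6 from -0.028 to 0.010. The cause of these turns was not tested.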
